A study of Homo sapiens with 8 samples.

Results

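SAS cells transfected with a miR-874-3p mimic were compared with SAS cells transfected with a negative control RNA (NC) on whole-transcriptome arrays. The comparison comprised 4 of the 8 arrays of the series, 2 for miR-874-3p and 2 for NC, and the arrays were assigned by their sample labels. The other 4 arrays carried cells that had received miR-629-3p or miR-210-3p, with 2 arrays each. The SAS line was derived from a human squamous cell carcinoma of the tongue and is in common use, and the study describes the cells as SAS/GFP, a derivative with a GFP vector, while the labels call them SAS and place them in medium with puromycin. Each RNA was given at 25 nM with a lipid reagent, without cisplatin (CDDP). The labels put extraction at 48 h with QIAzol and a miRNeasy kit, whereas the methods of the study give an earlier time and another kit. The mimic and the NC RNA came from different suppliers, and all cells were of 1 line. The study selected miR-874-3p as a candidate for CDDP resistance, and the arrays address which mRNAs differ once the miRNA is raised.

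A miRNA guides an Argonaute protein to mRNAs, mostly through pairing of its seed (bases 2 to 8) with sites that often lie in the 3′ untranslated region. Bound mRNAs are translated less and degraded, so a mimic usually lowers the levels of its direct targets, while other genes move as later consequences. miR-874 is encoded within the KLHL3 gene and has been studied mainly as a miRNA that restrains growth of carcinomas, head and neck carcinoma among them.

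The mature sequences of the 3 mimics are shown 5′ to 3′ with the seed in capitals, because the seed decides which mRNA sites can pair (RefSeq, GRCh38.p14). The other 2 mimics are used below as further comparison groups.
hsa-miR-874-3p: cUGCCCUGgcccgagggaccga
hsa-miR-629-3p: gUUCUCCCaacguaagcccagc
hsa-miR-210-3p: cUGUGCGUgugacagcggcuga
The mature miR-874-3p lies at chr5:137647582-137647603 on the minus strand, inside the span of KLHL3, and shares its seed with neither of the other mimics. The mRNA letters that pair with its seed are CAGGGCA.

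The 8 arrays shared 1 slide and 1 scan. The miR-874-3p arrays occupied columns 1 and 2 of slide row 2 and the NC arrays columns 3 and 4, so position along the row and treatment cannot be told apart. Row 1 held the arrays of the other mimics. Of 58201 gene probes, 46.3% and 42.7% were well above background after miR-874-3p, as were 42.4% and 41.8% after NC. In all, 467 of the 18757 genes tested were well above background on both miR-874-3p arrays and neither NC array, against 71 the other way round. Genes with a 2-fold or larger gap between replicates numbered 482 for miR-874-3p and 428 for NC, compared with 165 for miR-629-3p and 196 for miR-210-3p. All 12 markers of squamous epithelial cells (keratins, TP63, desmosomal cadherins, laminin-332 chains) were measured on all 4 arrays, with a summed log2 level of 10.69 to 10.71 for miR-874-3p and 10.71 to 10.80 for NC. Of the fibroblast markers, 2 of 10 were measured on all 4 arrays (PDGFRB and FAP). So were 4 of 8 leukocyte markers (PTPRC, CD3D, CD79A and CD14) and 3 of 8 endothelial markers (CDH5, VWF and ESAM). CD79A was the brightest of these, at 3.09 to 3.38. Others, such as COL1A2, CD2 and PECAM1, were not well above background on any of the 4. COL1A1 was well above background on the miR-874-3p arrays only. The summed log2 level of these other lists was at most 3.78 on any array. In bulk RNA, fewer cells of a type and less RNA per cell cannot be told apart.

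Levels are given as the log2 signal relative to the 75th percentile of the array, so that 0 marks the signal at that percentile, and a difference of 1 is a 2-fold change. Each comparison used limma on all 8 arrays with Benjamini-Hochberg adjustment over all 18757 genes. Genes are said to have risen or fallen only where the adjusted p was under 0.05, and the ± of a log2 fold change is its standard error. The labels do not say that the 2 arrays of a group came from separate cultures, so the p-values measure the spread between these samples, which may be technical. That spread is pooled over all 8 arrays. A fit with 1 array left out keeps 1 array in that group and takes the spread from the other groups only. A call kept in such a fit is therefore no measure of the spread in the reduced group. Among genes measured on all 4 arrays, the median replicate difference was 0.16 for miR-874-3p and 0.11 for NC. It was 0.09 for miR-629-3p and 0.08 for miR-210-3p, so the pooled spread may understate that of the compared groups.

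Compared with NC, 100 genes fell after miR-874-3p transfection (0.533% of those tested) and 92 rose (0.490%). The genes that fell were mostly well-measured mRNAs, since 72 of the 100 were protein-coding and 72 were well above background on all 4 arrays. Of the genes that rose, 37 of 92 were protein-coding and 42 reached that signal on all 4 arrays. Among all 18757 genes tested, 12549 were protein-coding. The changes among genes measured on all 4 arrays were small, with a median of 1.57-fold for those that fell and 1.70-fold for those that rose. At the threshold of the study, an unadjusted p under 0.05 with a 2-fold change, 264 genes were higher (1.41%) and 84 were lower (0.448%). Of the 264, 184 were not well above background on either NC array, and 52 of the 84 were not well above background on either miR-874-3p array. When the test was limited to genes measured on all 4 arrays, the same threshold gave 61 higher and 25 lower. With normexp background correction it gave 14 and 19. The adjusted counts depended on single arrays. Without miR-874-3p replicate 1 or 2, 280 or 229 genes rose and 117 or 110 fell, and without NC replicate 1 or 2, 51 or 50 rose and 89 fell in either case. At the threshold of the study, leaving out NC replicate 1 or 2 gave 170 or 190 lower genes, and leaving out miR-874-3p replicate 1 gave 394 higher genes.

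**Figure D1:**
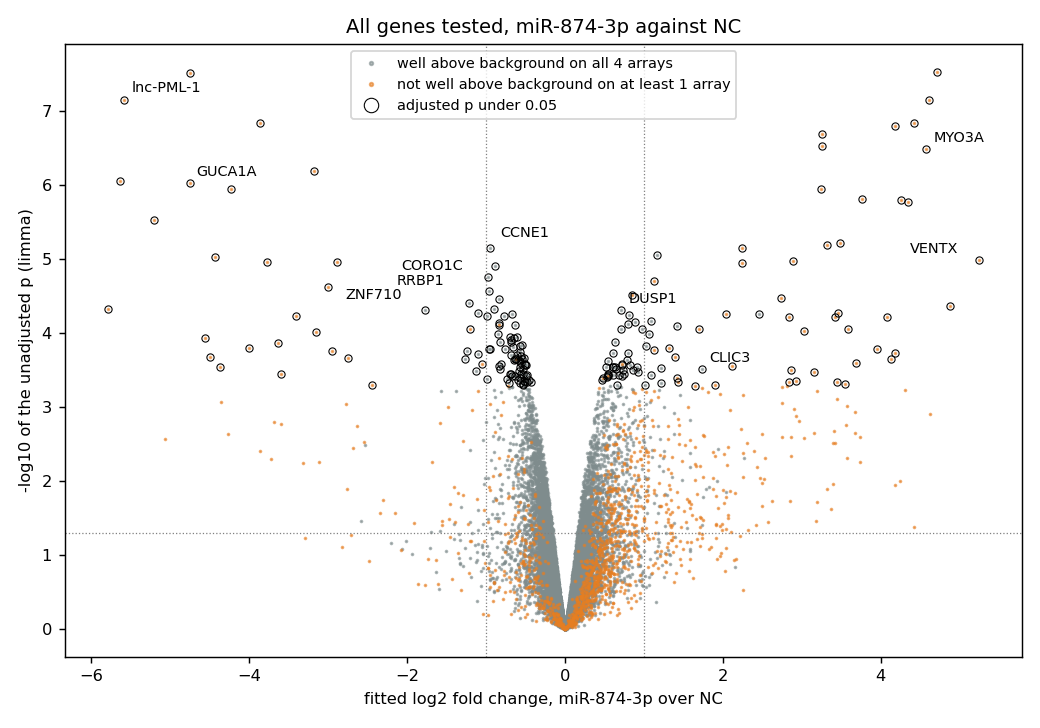
Each point is 1 of the 18757 genes tested, with the fitted log2 fold change of miR-874-3p over NC on the horizontal axis and −log10 of the unadjusted limma p on the vertical axis. Grey genes were well above background on all 4 arrays and orange genes were not, dotted lines mark 2-fold changes and the unadjusted threshold, and circles mark the 92 genes that rose and the 100 that fell. Nearly all changes beyond about 4-fold are orange, while CCNE1 and CORO1C stand out among the well-measured genes.

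Genes reported by earlier work as direct targets of miR-874-3p were lower as a group. All 11 described here passed the filter on detection, 9 of the 11 lay below both NC arrays on both miR-874-3p arrays, where 24.3% of all genes did. In the adjusted test 4 fell, against 0.533% of all genes. Their median log2 fold change was -0.35, beside -0.01 over all genes. The list was written from general knowledge of the miRNA and with earlier results of these arrays known.

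CCNE1, which encodes cyclin E1, the partner of CDK2 at entry into S phase, fell most. Its level was 2.83 and 2.83 after miR-874-3p and 3.75 and 3.81 after NC, a log2 fold change of -0.95 ± 0.07 (adjusted p = 0.00576, limma). The gap between the groups was far wider than the gap within either. PPP1CA, a catalytic subunit of protein phosphatase 1, was at 3.72 and 3.98 with miR-874-3p and at 4.70 and 4.64 with NC (-0.82 ± 0.11, adjusted p = 0.0401). ATG16L1, which is needed to form autophagosomes, was at 2.28 and 2.29 against 2.94 and 2.96 (-0.67 ± 0.07, adjusted p = 0.0203). The groups did not overlap for either gene. A dimmer probe of ATG16L1 gave -0.19 ± 0.18 (adjusted p = 0.632), so the fall of this gene rests on 1 of its probes. PLAU, the secreted protease urokinase, was at 6.16 and 6.02 against 6.72 and 6.68 (-0.61 ± 0.08, adjusted p = 0.0371). A second probe of PLAU gave -0.66 ± 0.22 (adjusted p = 0.204).

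The other reported targets did not pass the adjusted test. HDAC1, a histone deacetylase, was at 4.99 and 5.08 with miR-874-3p and at 5.44 and 5.45 with NC (-0.41 ± 0.07, adjusted p = 0.0615). STAT3, a cytokine-responsive transcription factor, was at -0.17 and -0.13 against 0.20 and 0.19 (-0.35 ± 0.08, adjusted p = 0.101), and its second probe gave -0.67 (adjusted p = 0.0744). The groups did not overlap for these genes, nor for CDK9, the kinase of transcription elongation, at -0.24 ± 0.07, E2F3, an activator of S-phase genes, at -0.18 ± 0.08, or MMP2, a gelatinase, at -0.25 ± 0.11. AQP3, a water and glycerol channel, was at 1.00 and 2.35 with miR-874-3p and at 2.16 and 1.15 with NC, so the arrays overlapped and replicates of both groups lay far apart. XIAP, an inhibitor of caspases, differed by 0.06 ± 0.07. Fitted to the 4 arrays alone, none of the 4 called genes passed. Their limma adjusted p was 0.158 for CCNE1, 0.259 for PPP1CA, 0.241 for ATG16L1 and 0.262 for PLAU. Without each of the 4 arrays in turn, CCNE1 was at -0.98 to -0.92. Without NC replicate 1 or 2, the adjusted p was 0.113 and 0.104 for PPP1CA, 0.0632 and 0.0675 for ATG16L1 and 0.105 and 0.0966 for PLAU.

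Most of these genes were lower with miR-874-3p than with the other mimics. Relative to NC, which the comparisons share, the median of the 11 genes was 0.16 for miR-629-3p and 0.21 for miR-210-3p. Compared directly with both other mimics, 8 of the 11 were lower with miR-874-3p at an adjusted p under 0.05 in each comparison, against 4.15% of all genes. The 3 that were not lower in both were HDAC1, MMP2 and AQP3. The 8 include XIAP, which was not lower than NC with miR-874-3p (0.06). It was higher than NC with miR-629-3p and miR-210-3p, at 0.41 and 0.42. PLAU (0.49 and 0.93) and CDK9 (0.35 and 0.31) also lay above NC with those mimics, so the count does not measure a fall from NC. HDAC1 was lower than NC with miR-629-3p as well, at -0.59, and did not pass against that mimic (0.18, adjusted p = 0.115). Among the 8, CCNE1 differed most from miR-629-3p, at -1.13, and was at -1.16 against miR-210-3p. PLAU differed most from miR-210-3p, at -1.54, and was at -1.10 against miR-629-3p. Slide row is confounded with these direct comparisons and cannot be told apart from the mimic.

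**Figure D2:**
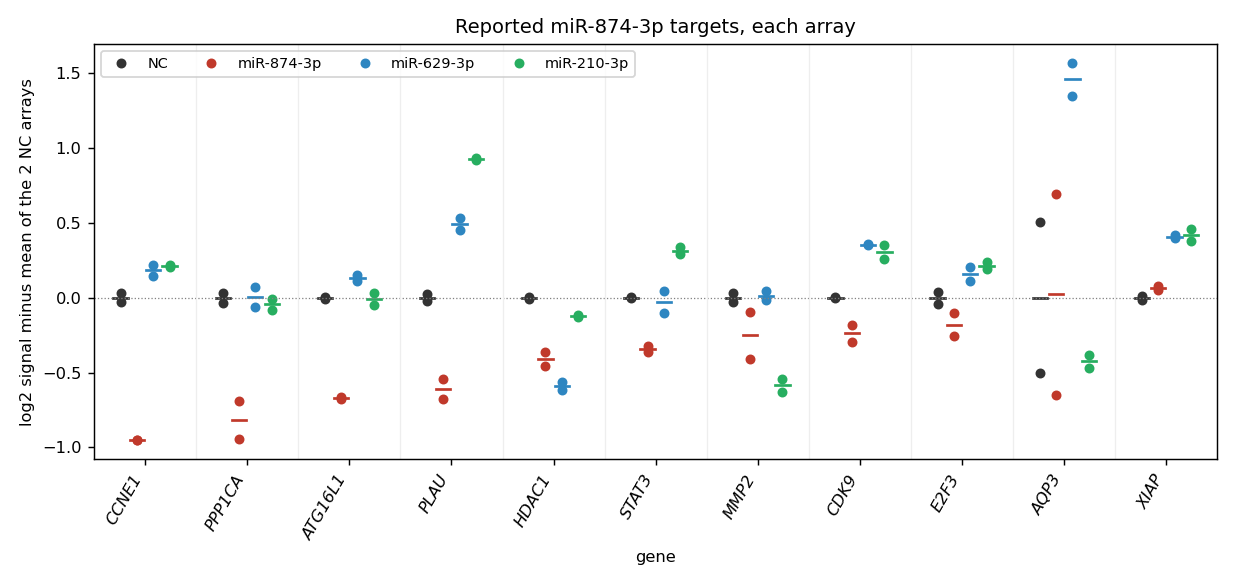
Levels of the 11 reported miR-874-3p targets on each array, as the log2 signal minus the mean of the 2 NC arrays, with points for arrays and bars for the mean of each group of 2. The miR-874-3p points lie below both NC points for 9 genes, from CCNE1 to E2F3, and the replicates of AQP3 are spread over more than 2-fold in both groups.

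KLHL3, which holds the miRNA gene and encodes an adaptor of a ubiquitin ligase, was at -1.70 and -1.46 with miR-874-3p and at -1.30 and -1.24 with NC (-0.31 ± 0.10, adjusted p = 0.199). Among the 13 genes of the host gene and the miRNA machinery, none rose or fell by limma, with 1 lower and 2 higher at an unadjusted p under 0.05, where 9.54% and 8.71% of all genes were. DICER1, which cuts miRNA precursors, had the largest difference among them at 0.36 ± 0.08 (adjusted p = 0.104).

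Outside the reported targets, the 10 protein-coding genes that fell most among those measured on all 4 arrays were ZNF710, CMPK1, LSM14B, RRBP1, RAB3D, GMPPB, ZNRF2, PMVK, CORO1C and TMTC4. CMPK1, the kinase that phosphorylates UMP and CMP for pyrimidine nucleotides, was at 0.90 and 1.14 with miR-874-3p and at 2.30 and 2.28 with NC (-1.27 ± 0.16, adjusted p = 0.0378). PMVK, phosphomevalonate kinase of the sterol pathway, was at 1.26 and 1.40 against 2.28 and 2.35 (-0.98 ± 0.10, adjusted p = 0.0203). GMPPB, which makes GDP-mannose for glycosylation, was at -0.70 and -0.61 against 0.57 and 0.32 (-1.10 ± 0.14, adjusted p = 0.0358). Each of these enzymes was about 2-fold lower without overlap of the arrays. RRBP1, a ribosome-binding protein of the endoplasmic reticulum, was at 1.14 and 1.37 against 2.54 and 2.39 (-1.21 ± 0.11, adjusted p = 0.0189). A second RRBP1 probe gave -1.19 (adjusted p = 0.0193) and a second CMPK1 probe -0.79 (adjusted p = 0.0301), so both genes fell on each of their probes. CORO1C, a coronin that binds actin filaments, was at 3.12 and 3.17 against 4.04 and 4.19 (-0.97 ± 0.08, adjusted p = 0.0102).

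RAB3D, a small GTPase of secretory vesicles, fell by 1.12 on the log2 scale, and ZNRF2, a ubiquitin ligase, by 1.10. TMTC4, a mannosyltransferase of the endoplasmic reticulum, fell by 0.96. LSM14B, an RNA-binding protein of translationally silent mRNPs, was at 0.86 and 0.94 against 2.38 and 1.91 (-1.25 ± 0.15, adjusted p = 0.0353), and its second probe gave -0.53 (adjusted p = 0.139). ZNF710, a zinc-finger protein, showed the largest change of the 10, from -0.90 and -0.36 with NC to -2.37 and -2.43 with miR-874-3p (-1.77 ± 0.17, adjusted p = 0.0203). Its values with miR-629-3p and miR-210-3p were -1.53 and -1.66 relative to the same NC arrays, and it did not pass against either of them (-0.24 and -0.11, adjusted p = 0.364 and 0.69). The other 9 were lower than both other mimics at an adjusted p under 0.05. Fitted to the 4 arrays alone, none of the 10 passed against NC, with limma adjusted p of 0.158 to 0.264. Over all 72 genes that fell and were measured on all 4 arrays, 41 were lower than both other mimics, against 4.15% of all genes, although the same miR-874-3p arrays enter each of these comparisons. Without each array in turn, ZNF710 was at -2.04 to -1.50, CORO1C at -1.05 to -0.90 and ZNRF2 at -1.25 to -0.95. Of the 10 genes, 6 kept the call without miR-874-3p replicate 1, 8 without replicate 2, 4 without NC replicate 1 and 6 without NC replicate 2, and the lost calls had adjusted p of 0.0538 to 0.108.

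The protein-coding genes that rose most among those measured on all 4 arrays included a chloride channel protein, an ephrin receptor and a phosphatase of MAP kinases. CLIC3, an intracellular chloride channel protein, was at 3.41 and 4.10 with miR-874-3p and at 2.11 and 1.93 with NC (1.73 ± 0.24, adjusted p = 0.0413). It was below NC with both other mimics, at -0.92 for miR-629-3p and -1.35 for miR-210-3p. EPHA4, a receptor tyrosine kinase for ephrins, was at -0.96 and -0.91 against -1.90 and -2.41 (1.22 ± 0.18, adjusted p = 0.0486). DUSP1, which dephosphorylates MAP kinases, was at 3.63 and 3.68 against 2.93 and 2.95 (0.71 ± 0.07, adjusted p = 0.0203). SSC4D, a scavenger receptor cysteine-rich protein, was at 2.09 and 2.31 against 1.36 and 1.26 (0.89 ± 0.09, adjusted p = 0.023). The arrays of the groups did not overlap for these genes. CERS1, a ceramide synthase, rose by 0.80 ± 0.08 (adjusted p = 0.0234) and RLTPR, a regulator of actin capping, by 0.70 ± 0.08 (adjusted p = 0.0241).

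ANO2, a calcium-activated chloride channel, rose by 1.03 ± 0.12 and lay at 0.91 and 1.22 relative to NC with miR-629-3p and miR-210-3p. GNGT1 (a transducin subunit) rose by 1.09, C17orf99 by 0.91 and OR11A1 (an olfactory receptor) by 0.72. Relative to NC, EPHA4, C17orf99 and DUSP1 also rose with miR-629-3p (0.77, 0.89 and 0.38), and GNGT1 rose with miR-210-3p (0.74). Directly against those mimics, EPHA4 (0.45), C17orf99 (0.02) and GNGT1 (0.35) did not pass (limma adjusted p = 0.127, 0.921 and 0.175). CLIC3, SSC4D, OR11A1, DUSP1 and RLTPR were higher than both other mimics at an adjusted p under 0.05. Fitted to the 4 arrays alone, none of these 10 leading genes passed against NC, with limma adjusted p of 0.208 to 0.262. Of the 42 genes that rose and were measured on all 4 arrays, 13 were also higher than both other mimics, against 1.80% of all genes, with the same miR-874-3p arrays in each comparison. CERS1 was also higher than NC with miR-210-3p, at 0.77. It lost its call without NC replicate 1 alone (adjusted p = 0.0632), and each other gene of the 10 lost it under at least 2 of the 4 omissions. Of the 10, 6 kept the call without miR-874-3p replicate 1, 7 without replicate 2, 2 without NC replicate 1 and 1 without NC replicate 2, with adjusted p of 0.0568 to 0.142 where it was lost.

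**Figure D3:**
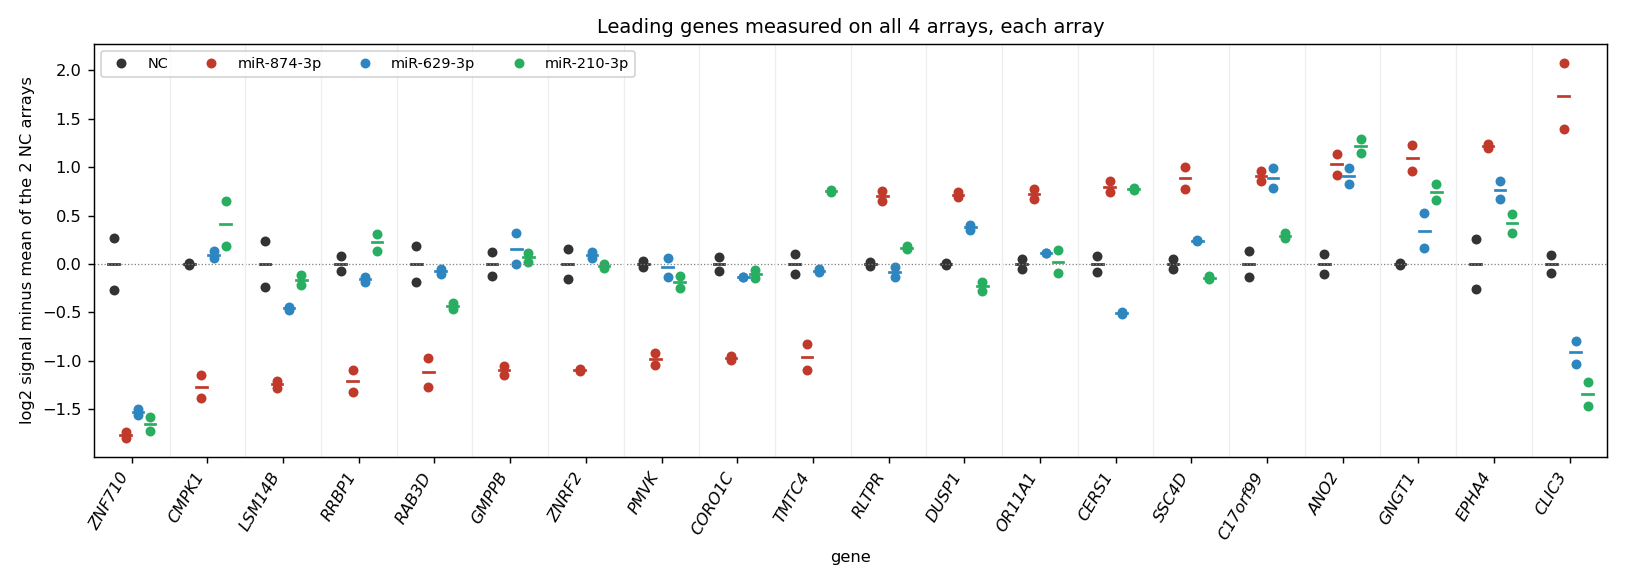
The 20 protein-coding genes with the largest changes among those measured on all 4 arrays, ordered by log2 fold change, with each array shown as the log2 signal minus the mean of the 2 NC arrays. Points are arrays and bars are group means of 2. ZNF710 was low with all 3 mimics, while RRBP1, ZNRF2 and CORO1C were low with miR-874-3p and near NC with the others, and CLIC3 lay above NC with miR-874-3p and below it with the other mimics.

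The largest fitted changes belonged to genes that were not well above background in one of the groups, for which only a bound can be given. A bound compares the mean of the bright group with the higher of the dim probe's own signal and the lowest signal well above background on each dim array. The bounds hold only for the processing used here. Over the alternative settings that left out no compared array, the smallest fitted log2 fold change was 1.45 for VENTX and 0.97 for MYO3A. Among genes that rose, VENTX, a homeobox gene, was at -0.51 and 0.82 with miR-874-3p and at -5.10 and -5.08 with NC, which is at least 8.21-fold higher (adjusted p = 0.007). MYO3A, a myosin, was at -0.23 and -0.82 against -5.11 and -5.09, at least 5.13-fold higher (adjusted p = 0.00061). Being well above background on both miR-874-3p arrays and on neither NC array was the rule that chose these genes, not a further result. GDNF, a neurotrophic factor, was at least 5.16-fold higher, DUSP16, a JNK phosphatase, at least 4.63-fold higher and AIF1, a calcium-binding protein of macrophages, at least 4.58-fold higher. GDNF lost its call without NC replicate 1 or 2 (adjusted p = 0.078 and 0.103), DUSP16 without miR-874-3p replicate 1 or 2 or NC replicate 1 (0.0544, 0.0702 and 0.0821), and AIF1 without miR-874-3p replicate 2 (0.0514). Under the settings that keep more probes, a brighter GDNF probe took its place and gave -0.41, so the direction for GDNF depends on the probe. The leading transcripts with no match to a protein-coding gene were also below background with NC. lnc-CTH-6 (chr1:71873348-71873407, hg19) and lnc-C6orf89-1 (chr6:36912392-36912451, hg19) were at least 6.15-fold and 5.72-fold higher. Under the alternative settings their smallest fitted log2 fold changes were 1.11 and 1.01. LOC101927156 was at least 7.30-fold higher and lost its call without NC replicate 1 or 2 (adjusted p = 0.0597 and 0.0586). With the higher floor on dim signals, GDNF and LOC101927156 lost their calls (adjusted p = 0.0744 and 0.055).

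Among genes that fell to below background, GUCA1A, a guanylate cyclase activator, was at -5.29 and -4.98 with miR-874-3p and at -0.64 and -0.12 with NC, at least 6.49-fold lower (adjusted p = 0.00136). OR8G1, an olfactory receptor, was at least 5.41-fold lower, CYP3A5, a drug-metabolizing cytochrome, at least 2.33-fold lower, CLSTN2, a calsyntenin, at least 1.79-fold lower and LYL1, a transcription factor of blood cells, at least 1.49-fold lower. The non-coding transcripts lnc-PML-1 (chr15:74342405-74342464, hg19), lnc-TPSG1-2 and lnc-TRIM55-1 were at least 10.8-fold, 11.8-fold and 12.4-fold lower. Under the alternative settings their smallest fitted log2 fold changes were -1.47, -1.53 and -1.71, and that of GUCA1A was -1.065. The NC levels differed widely among the named transcripts. They also differed between the NC arrays, at 0.32 and -1.61 for OR8G1 and -0.34 and 1.45 for lnc-TRIM55-1. Apart from LYL1, the named transcripts were below background with both other mimics as well. LYL1, at -2.50 and -2.52 with NC, lay close to the lowest signals well above background there (-2.90 and -2.87), as did CLSTN2 on NC replicate 1, at -2.56. OR8G1 lost its call without miR-874-3p replicate 1 or 2 (adjusted p = 0.0696 and 0.0599) and LYL1 without NC replicate 1 or 2 (0.0719 and 0.0732). With signals raised to a floor at the lowest signal well above background, OR8G1 and CYP3A5 lost their calls (adjusted p = 0.067 and 0.0594), and with the higher floor OR8G1, CYP3A5, CLSTN2 and LYL1 did (0.122, 0.182, 0.172 and 0.100).

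Gene lists for cell cycle, interferon and squamous biology were then described by their members. Mitotic genes were lower by a small and even amount. All 30 were measured on all 4 arrays, 28 had a negative log2 fold change and 27 lay below both NC arrays on both miR-874-3p arrays, compared with 24.3% of all genes. None fell by limma after adjustment, and 21 of 30 were lower at an unadjusted p under 0.05, compared with 9.54% of all genes. The median log2 fold change was -0.26, and the median level of the list was 3.91 and 3.88 with miR-874-3p and 4.17 and 4.15 with NC. CENPF, a kinetochore protein, was at 6.23 and 6.21 against 6.64 and 6.71 (-0.46 ± 0.07, adjusted p = 0.0561), the largest difference of the list. CDK1, the kinase of mitotic entry, was at 4.60 and 4.40 against 4.72 and 4.82 (-0.27 ± 0.09, adjusted p = 0.208). BIRC5 and MAD2L1 were the 2 members not lower, at 0.05 and 0.04. With miR-629-3p the median of the list relative to the same NC arrays was -0.23, and with miR-210-3p it was 0.13. Directly compared, 18 of 30 were lower than with miR-210-3p (11.0% of all genes were) and 2 of 30 lower than with miR-629-3p (13.6% of all genes).

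Histone genes were lower by a similar amount. Of 22 measured genes of core and linker histones, which cells transcribe mostly in S phase, 20 had a negative log2 fold change, with a median of -0.32. None fell after adjustment by limma and 17 were lower at an unadjusted p under 0.05, where 9.54% of all genes were. HIST1H2BE was lowest at -0.62 ± 0.16 (adjusted p = 0.131), with levels of 1.10 and 0.88 against 1.55 and 1.68, and HIST1H4A was at 3.88 and 3.73 against 4.19 and 4.31. H2AFX and HIST1H3A were not lower, at 0.09 and 0.12. Histone paralogs are similar in sequence, so a probe may report more than 1 of them. The list median relative to NC was -0.33 after miR-629-3p and 0.06 after miR-210-3p. Among 30 genes of the G1/S transition and DNA replication, 25 had a negative value and the median was -0.15. CCNE1 alone fell, where 0.533% of all genes did. CCND3, which encodes a D-type cyclin, was higher with all 3 mimics, at 0.52 ± 0.08 with miR-874-3p (adjusted p = 0.0561) and 0.73 and 0.64 with the others.

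Interferon-stimulated genes were lower with miR-874-3p and varied widely. Of 28 members that passed the filter, 27 had a negative value and the median was -0.31. USP18, which removes ISG15 from proteins and restrains interferon signalling, was the 1 member that fell, where 0.533% of all genes did. It went from -0.41 and -0.36 with NC to -0.90 and -0.87 (-0.50 ± 0.07, adjusted p = 0.0401). In the list, 11 of 28 were lower at an unadjusted p under 0.05, beside 9.54% of all genes. IFI44 was at -0.29 and 0.10 against 0.78 and 0.59 (-0.78 ± 0.16, adjusted p = 0.0905), and IFIT3 at 2.18 and 2.41 against 2.94 and 2.75. For both genes the arrays did not overlap. OAS1 had the lowest value of the list at -1.41, but its NC arrays lay at -1.67 and 0.37, and MX2 was the only member with a positive value, at 0.29. Relative to the shared NC arrays, the list median was 0.29 for miR-629-3p and -0.46 for miR-210-3p. Directly, 18 of 28 were lower than with miR-629-3p, compared with 13.6% of all genes. None were lower than with miR-210-3p, where 11.0% of all genes were, and 6 were higher, where 847 of all 18757 genes were.

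Single members of the cytokine, JAK-STAT3, EMT and NRF2 lists were also called, where 0.533% of all genes fell. SOCS3, the feedback inhibitor that STAT3 induces, was at 1.87 and 1.94 against 2.53 and 2.58 (-0.65 ± 0.07, adjusted p = 0.0287), and it was lower than both other mimics. Among the 16 genes of the JAK-STAT3 list, SOCS3 alone fell, 11 had a negative value and the median was -0.12. IL6 itself was at 1.99 and 1.89 against 2.55 and 2.70 on its brighter probe (-0.69 ± 0.08, adjusted p = 0.0303). Its other probe was at -0.50 and -0.69 with miR-874-3p and at -5.11 and -5.08 with NC, at least 4.88-fold higher (adjusted p = 0.00704), so the probes of IL6 differ in direction. Of 21 cytokine and chemokine genes measured, IL6 was the 1 called, and TNF was at -0.89 ± 0.17 (adjusted p = 0.0848). ITGB1, the integrin beta-1 subunit, was the 1 of 30 measured EMT genes that fell, at 0.88 and 0.88 against 1.47 and 1.47 (-0.59 ± 0.08, adjusted p = 0.0418). NQO1, an NRF2-induced quinone reductase, fell by 0.48 ± 0.07 (adjusted p = 0.0437) among 16 NRF2 targets with a median of -0.01. AKR1B10, an aldo-keto reductase of the same list, was higher only at the unadjusted threshold with 2-fold (1.12 ± 0.36, adjusted p = 0.187), and its second probe gave 0.19. With miR-210-3p, IL6 on its brighter probe, NQO1 and USP18 also fell relative to NC, at -0.69, -0.50 and -0.47. Compared directly, they did not pass between miR-874-3p and miR-210-3p (0.01, 0.02 and -0.03, limma adjusted p = 0.971, 0.835 and 0.805). Leaving out 1 array ended the call of NQO1, USP18 and ITGB1 in each of the 4 cases (adjusted p of 0.052 to 0.137), of SOCS3 without NC replicate 1 or 2 (0.0719 and 0.0925), and of IL6 without NC replicate 2 (0.0808).

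No gene of the lists for platinum adduct repair, platinum transport, apoptosis or p53 targets was called after adjustment. Among 31 genes for repair of platinum adducts, 24 had a negative value, where 52.0% of all genes did, and the median was -0.11. On both miR-874-3p arrays 12 lay below both NC arrays, where 24.3% of all genes did. In the limma test 3 were lower and 1 higher at an unadjusted p under 0.05, beside 9.54% and 8.71% of all genes. REV3L, the catalytic subunit of translesion polymerase zeta, was lowest at -0.42 ± 0.07 (adjusted p = 0.0615). The 24 measured genes of platinum transport, glutathione and metallothioneins had a median of 0.01, the 26 apoptosis regulators 0.04, and the 21 p53 targets 0.01, with none called after adjustment and 1, 2 and 2 lower and 2, 2 and 1 higher at an unadjusted p under 0.05, beside the same shares of all genes. The medians were -0.07 for 17 histone deacetylases and sirtuins, 0.03 for 4 aquaporins, -0.06 for 33 keratins and differentiation genes, -0.03 for 32 genes of migration and matrix proteases, 0.03 for 28 hypoxia and glycolysis genes, 0.07 for 24 genes of cholesterol and fatty acid synthesis and 0.03 for 23 genes of the unfolded protein and amino acid stress responses. Of these, PLAU in the migration list was the 1 gene called, where 0.533% of all genes fell. Angiogenesis and growth factor genes had the highest median at 0.11, with 7 of 27 higher and 2 lower at an unadjusted p under 0.05 (8.71% and 9.54% of all genes) and none called after adjustment. In the keratin list 20 of 33 had a negative value. The basal keratins differed in direction, with KRT14 and KRT17 at 0.61 and 0.61 relative to NC (adjusted p = 0.103 and 0.0874), KRT15 at -0.02 and KRT5 at -0.30 (adjusted p = 0.436). The levels of KRT5 were 5.27 and 5.87 against 5.87 and 5.87.

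**Figure D4:**
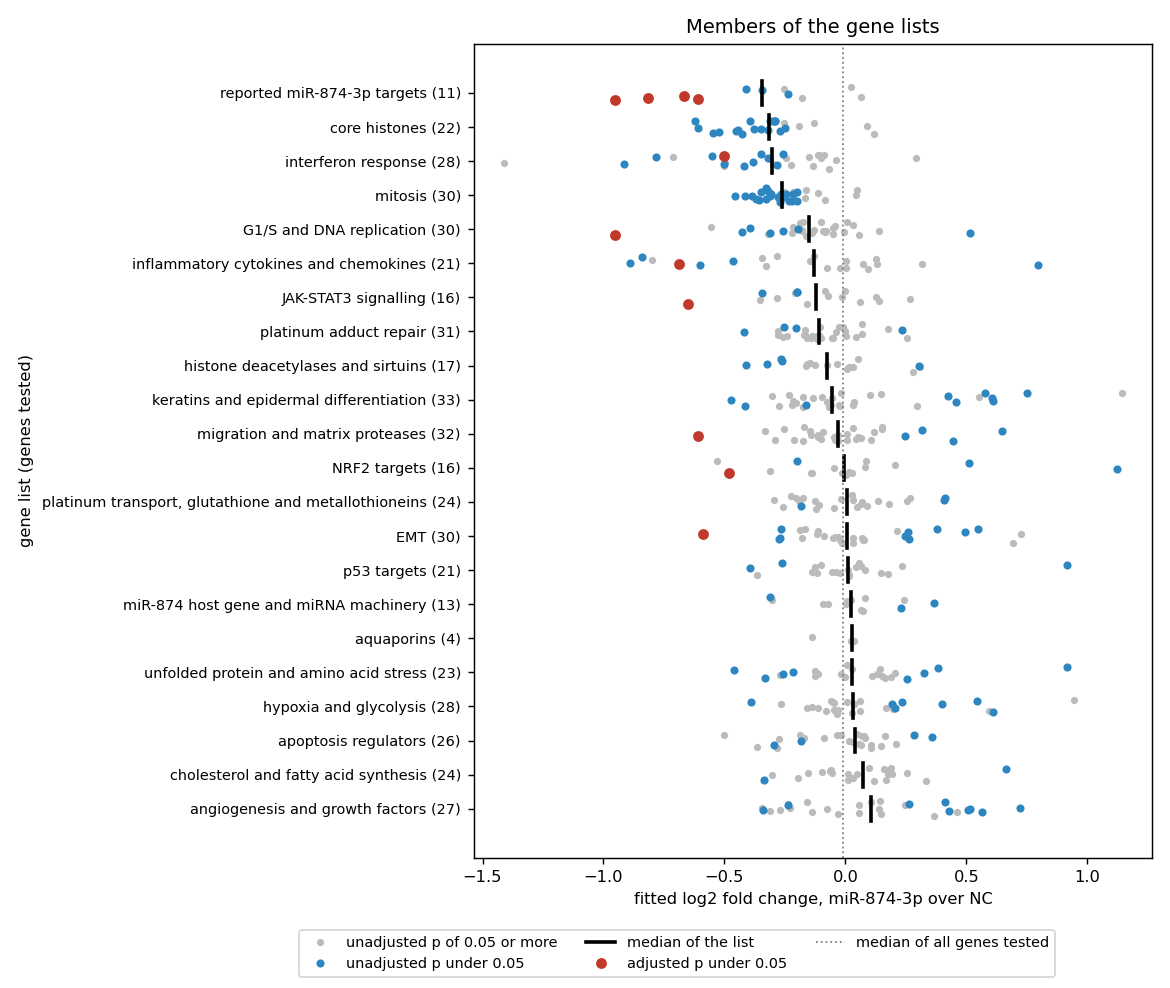
Fitted log2 fold change of miR-874-3p over NC for each measured member of the 22 gene lists, ordered by list median (black bars), with the number of genes tested in parentheses. Red points have an adjusted p under 0.05 and blue points an unadjusted p under 0.05. The reported targets lie farthest left with a median of -0.35, and the mitotic and histone genes form narrow groups left of the dotted line, which marks the median of all genes.

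The 60-base probes themselves were searched for the seed match CAGGGCA (complement of bases 2 to 8) and its 6-base part AGGGCA (bases 2 to 7), on the strand of the transcript, and for TGCCCTG, the letters of the opposite strand. The 7-base match occurred in 0.387% of all 58201 probes, and a match in a probe is a description of 60 bases, not a binding site. Of 72 tested genes with the 7-base match, 50 (69.4%) had a negative log2 fold change, compared with 52.0% of all genes tested, and 13 (18.1%) were lower at an unadjusted p under 0.05, compared with 9.54%. Their median was -0.07. The 192 genes with the 6-base match alone had a median of -0.04, and 33 were lower at an unadjusted p under 0.05 (17.2%). The 144 genes with the letters of the opposite strand had a median of 0.03, and 10 were lower (6.94%). With the other mimics, the median of the 72 genes relative to the shared NC arrays was 0.05 and 0.04. The 19 genes with the 8-base match CAGGGCAA had a median of -0.01, and 57.9% were negative. In the same comparison, the 108 genes whose probe matches the seed of miR-629-3p had a median of -0.05, and 57.4% were negative.

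Windows of 30 bases are shown for protein-coding genes that fell, or were lower at the threshold of the study. They give the match within the probe (capitals, 7 or 6 bases). A transcript with no match to a protein-coding gene also met that threshold (-1.04, limma adjusted p = 0.244) and is not shown. ACTR10 encodes a subunit of dynactin and ADAM19 a membrane-anchored metalloprotease. The genes were chosen for these matches after their values were seen.
ACTR10: ttatatcttctCAGGGCAgaggttcttgaa
SOCS3: caggtattgggctggaCAGGGCAgttgtgt
ADAM19: tgtctgggatcCAGGGCAatgtgaattttc
LSM14B: aatcgctccagAGGGCAaaaccgtccaact
TMTC4: agAGGGCAacacatctgtgtaagctgcttt
On hg19, the build that the scanner files name, these windows are chr14:58702255-58702284 (plus strand), chr17:76353127-76353156 (minus), chr5:156904480-156904509 (minus), chr20:60705603-60705632 (plus) and chr13:101256442-101256471 (minus). ACTR10 was at -1.41 and -1.26 with miR-874-3p and at -0.40 and -0.36 with NC (-0.96 ± 0.08, adjusted p = 0.0145). ADAM19 was at -1.30 and -1.94 against -0.63 and -0.54 (-1.03 ± 0.21, adjusted p = 0.0907). SOCS3, LSM14B and TMTC4 fell as given above. ARHGEF25, a guanine nucleotide exchange factor whose probe also holds CAGGGCA, rose (adjusted p = 0.0478) from below background on both NC arrays. At the threshold of the study, 3 of the 264 genes with the 6-base match were lower and 4 higher, where 0.448% and 1.41% of all genes were. The 4 higher genes were ARHGEF25, lnc-B3GAT2-2 (1.69, adjusted p = 0.0241), CES3 (1.33, adjusted p = 0.247) and MEI1 (1.30, adjusted p = 0.124).

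**Figure D5:**
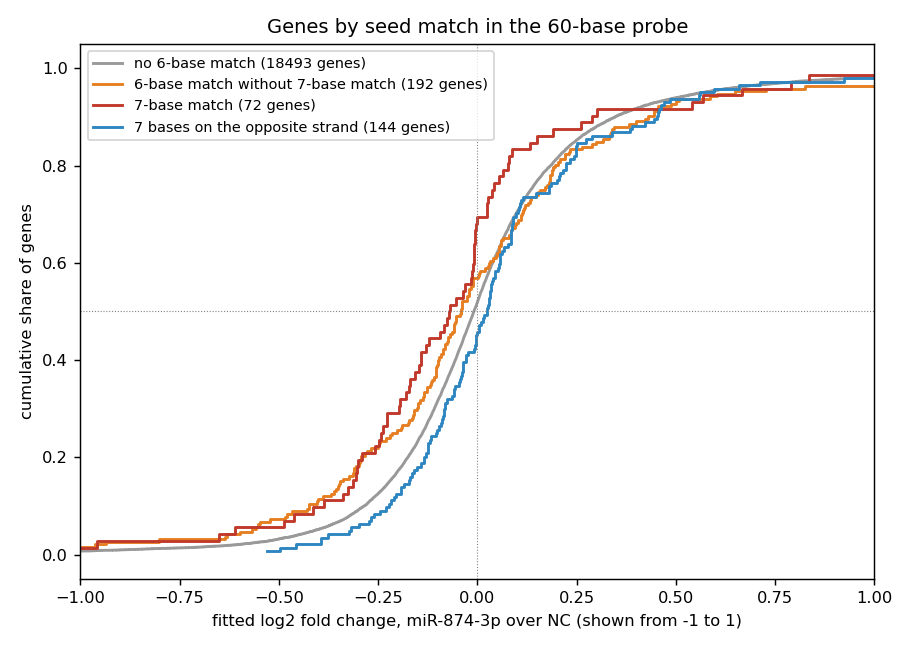
Cumulative share of genes by fitted log2 fold change of miR-874-3p over NC, for genes whose probe holds the 7-base match (72 genes), the 6-base match alone (192), the same 7 letters of the opposite strand (144), or no 6-base match (18493). The curve of the 7-base match lies left of the grey curve through most of its range, and that of the opposite strand lies to the right of it up to its middle.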

How the data were processed

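RNA from SAS cells was measured on 8 one-colour Agilent SurePrint G3 Human GE v3 arrays. For each array the authors deposited Feature Extraction 11.5.1.1 output, whose intensity values are background-subtracted and spatially detrended and not normalized between arrays, and a table of log2 values. Set against the scanner values, the deposited log2 table equals log2 intensity minus the 75th percentile of each array plus at most 0.008, with all probes within 0.05. Its column medians were -3.68 to -3.36, it is not centred per gene, and its direction is that of the signal.

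Here, spots flagged as outliers (87 to 346 of 60901) and control spots were left out, no spot was saturated, replicate spots were averaged on the log2 scale, and the 75th percentile over 58201 gene probes was subtracted. Probes with a value on all 8 arrays and well above background on both miR-874-3p or both NC arrays were kept, and the brightest probe represented a gene name, leaving 18757 of 43317 names. Of these, 14294 matched RefSeq genes (GRCh38.p14), which gave gene types. Probe coordinates are hg19, the build in the file headers. The number of arrays limits the precision.

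Groups were assigned by the labels and compared with limma 3.58.1 (lmFit, eBayes; R 4.3.3), fitted to the 8 arrays with no covariate (4 residual and 2.05 prior degrees of freedom), with Benjamini-Hochberg adjustment. Contrasts against both other mimics came from the same fit. Student's t-test, which the study's methods give for 2 groups, was run as an alternative. The members, the 22 gene lists and the tests were chosen with earlier results of these data known. Genes named are the 10 largest adjusted changes in each direction among protein-coding genes measured on all 4 arrays, the 5 largest not measured in the dim group, the 3 largest not protein-coding, called list members, the reported targets and KLHL3, with the groups not overlapping for the ranked genes. List extremes, ACTR10, ADAM19, ARHGEF25 and further list members were chosen after their values were seen. On simulated data for miR-874-3p against NC (18757 genes, 50 changed at each size), 80% of changes of 1 on the log2 scale, 94% of 1.5, 94% of 2 and 100% of 3 passed the adjusted test, with 9 false calls. The simulated noise was independent and normal, with the same spread for a gene on all 8 arrays. The compared groups had larger replicate differences than the other mimics, so the simulation may overstate recovery and understate false calls.

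Alternatives were normexp background correction (offset 50), quantile normalization, median centring, the deposited table, outlier spots kept, 2 floors on dim signals, other detection filters, every probe, the 4 arrays alone, eBayes with trend, a replicate block, the methods' t-test and each array left out. The higher floor and a crossed block were chosen after seeing the data. Transcript 3′ UTRs were not analysed here, and 1 member of the list of reported targets is not reported here.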

Additional observations from a re-analysis of the deposited data

Results flagged for a closer look

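Some named genes changed in opposite directions relative to NC under different mimics, with a fitted adjusted p under 0.05 against NC under each mimic and in the direct comparison of the mimics. CLIC3 rose by 1.73 with miR-874-3p and fell by 0.92 with miR-629-3p and by 1.35 with miR-210-3p, so that miR-874-3p lay 2.65 and 3.08 above them (log2, limma adjusted p = 0.00278 and 0.00257). CERS1 rose by 0.80 with miR-874-3p and fell by 0.51 with miR-629-3p, a difference of 1.31 (adjusted p = 0.00137), and it rose by 0.77 with miR-210-3p. The fitted differences from miR-629-3p were 5.42 for lnc-CTH-6 and 5.33 for lnc-C6orf89-1, but both transcripts were below background on the miR-629-3p and the NC arrays, so these values are not measured sizes and no direction between miR-629-3p and NC was measured.

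Among genes that fell with miR-874-3p, PLAU rose with miR-629-3p and miR-210-3p and differed by -1.10 and -1.54 (adjusted p = 0.00161 and 0.00113). TMTC4 rose by 0.75 with miR-210-3p, a difference of -1.71 (adjusted p = 0.00219). IL6 on its brighter probe rose by 0.66 with miR-629-3p, a difference of -1.34 (adjusted p = 0.00109). With miR-210-3p the same IL6 probe fell by 0.69, as it did with miR-874-3p. ITGB1 rose by 0.36 with miR-210-3p, a difference of -0.95 (adjusted p = 0.00345). All of these comparisons share the miR-874-3p arrays, those with NC share the NC arrays, and slide row cannot be told apart from the mimics in the direct comparisons.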

How the results depend on the processing

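Of 45 named genes with an adjusted p under 0.05, 44 kept their direction under every alternative that gave a value. GDNF was at -0.41 with no filter on detection and with detection in any of the 4 groups, where another probe stood for it. The groups did not overlap for any of the 45. Leaving out an array, a block, a trend, the t-test and the 4 arrays alone therefore could not reverse a direction. Sizes depended more on the setting. With no compared array left out, the smallest log2 fold changes were -0.57 for ZNF710, -0.34 for RAB3D, -0.64 for GMPPB and -0.48 for ZNRF2. They were 0.35 for EPHA4, 0.34 for C17orf99 and 0.47 for GNGT1. Other genes changed less, such as CORO1C (-0.98 to -0.89), CCNE1 (-0.95 to -0.86) and DUSP1 (0.67 to 0.74). With the 4 arrays alone, only MYO3A, GUCA1A, lnc-CTH-6, lnc-C6orf89-1, lnc-TPSG1-2 and lnc-PML-1 of the 45 kept an adjusted p under 0.05. With the t-test none did. AQP3, which was not called, ranged from -0.65 to 0.69 when 1 array was left out. Counts are given below as higher and lower at the threshold of the study, then risen and fallen after adjustment, where the values above are 264, 84, 92 and 100. They were 600, 242, 13 and 7 with no filter on detection, 323, 107, 46 and 42 with detection in any of the 4 groups, and 61, 25, 30 and 49 with detection on all 4 arrays, settings that change which genes are tested. They were 14, 19, 155 and 227 with normexp, 288, 102, 244 and 347 with a trend, 233, 65, 17 and 8 with the 4 arrays alone, and 156, 62, 110 and 105 with the higher floor. The methods' t-test gave 84, 39, 0 and 0, with 773 genes higher and 1011 lower at an unadjusted p under 0.05 and any fold. The 4 arrays alone and the t-test have fewer residual degrees of freedom and take the spread without the other mimics. The floor raises dim signals. Apart from these, the cause was not tested. Leaving out 1 array gave 253 to 394, 92 to 190, 50 to 280 and 89 to 117. With a replicate block the counts were 267, 84, 33 and 24. Deviations of same-numbered miR-874-3p and NC arrays correlated at -0.14, and those of the other pairs of groups at -0.06 to 0.04, so the numbers do not pair the samples. Exchanging the NC numbers in the block, an alternative chosen after seeing the data, gave 265, 90, 32 and 18. The deposited table, quantile normalization, median centring, outlier spots kept, every probe and the planned floor kept each count within 1.5 times. The medians of the reported targets (-0.45 to -0.22), mitotic genes (-0.29 to -0.20), histones (-0.41 to -0.28) and interferon genes (-0.49 to -0.20) stayed negative under 15 alternatives. Signal over background limits the changes of dim genes to bounds.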
